A study of Homo sapiens with 19 samples.

Results

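The proteasome is the protease that degrades proteins tagged with ubiquitin. Its 20S core is a barrel of alpha rings, which gate the entry, and beta rings, which hold the catalytic sites, and the 19S cap recognises, deubiquitinates and unfolds the substrate with a ring of ATPases below a lid. Other caps (the PA28 and PA200 activators) open the core without ubiquitin, dedicated chaperones assemble the parts, and interferon replaces the constitutive catalytic subunits by inducible ones to form the immunoproteasome. Human embryonic stem cells are known for high proteasome activity.

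The genes described here are the proteasome genes on the array, chosen by their symbol: PSMA, PSMB, PSMC, PSMD, PSME, PSMF or PSMG followed by a digit, protein coding, each read by its brightest probe. The symbol rule found 50 of the 20503 genes that have a probe, after 3 antisense RNAs were left out. PSMC3IP, a recombination factor, and PSME3IP1, a partner of PSME3, carry such symbols without being subunits and were also counted apart. Of the 50 genes, 48 were well above background on all 19 arrays. PSMA8, the alpha subunit of the testis, was above background on 3 arrays and was not tested, and PSMB11, the catalytic subunit of the thymus, was above background on 5, so 49 members entered the tests.

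The samples follow KhES-3 human embryonic stem cells on the way to brown adipocytes (BAs), with 1 harvest at each of 19 times between 3 and 72 h of induction. All samples share a serum-free BA medium in low-attachment dishes with the cytokines IGF-II, BMP4, VEGFA, KITLG, FLT3LG and IL-6, which means that no untreated or 0 h sample stands beside them. The study is limited to 1 cell line, and the labels describe growth on irradiated mouse fibroblast feeders where the methods of the study describe a feeder-free system. Each time point has 1 array without replicates, so errors are the scatter of the arrays around a fitted course, and a change in the mixture of cells cannot be told apart from a change of RNA within a cell.

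Among the 9 pluripotency markers with a probe, all were above background on every array, and their summed signal ranged from 850338 to 860678 at 3 to 6 h and from 642570 to 678777 at 60 to 72 h. Of 10 fibroblast markers, 4 were on fewer than 5 arrays, among them COL3A1, LUM and FAP, while COL1A1, COL1A2 and THY1 were above background on all. The brown fat markers MYF5 and EBF2 were on fewer than 5 arrays and UCP1 was above background on 8. Of 8 tested trophoblast and amnion markers 3 rose and 1 fell, with summed signals of 7210 to 8336 early and 9291 to 13526 late, and ERVW-1 was on fewer than 5 arrays. Of 6 tested blood and endothelial markers 2 rose and 1 fell, with summed signals of 2545 to 3537 early and 5435 to 8258 late, while CD34, PECAM1, GATA1 and HBE1 were on fewer than 5 arrays. Of the 9 pluripotency markers 4 fell, and of 10 tested mesoderm and endoderm markers 1 rose and 1 fell. Of 6 tested fibroblast markers 1 rose and 2 fell, and of 6 tested brown fat markers 1 fell. Among all genes tested, 21.3% rose and 32.7% fell. In the fit with the slide as a block, described below, none of these lists held a rising gene. In that fit 1 pluripotency marker, 1 brown fat marker and 1 blood and endothelial marker fell. Over all genes 4.22% rose and 5.33% fell with the block. The part of these cell types in the results below was not tested.

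Signals below are processed intensities of the scanner, scaled so that the 75th percentile of every array is 690. They compare the same probe between times and not one gene with another. The arrays lay on 3 slides, with 3 to 12 h on the first, 14 to 42 h on the second and 48 to 72 h on the third, which was scanned on another day. Slide and time thus overlap, and slopes on time were fitted with limma over all arrays, with the slide as a block, and within each slide.

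The promoters of 5 members are shown because these genes stand at the ends of the range of courses. PSME3 and PSMA4 had the steepest falling slopes of all members, PSMB10 fell the most among the catalytic subunits, and PSMB8 and PSMB9 are the inducible catalytic subunits that did not pass the test. Each sequence is the 250 bases before the RefSeq transcription start (GRCh38.p14), read 5′ to 3′ on the strand of the gene, with capitals marking a match to 1 of 4 motifs named below.
PSME3, chr17:42833147-42833396, plus strand: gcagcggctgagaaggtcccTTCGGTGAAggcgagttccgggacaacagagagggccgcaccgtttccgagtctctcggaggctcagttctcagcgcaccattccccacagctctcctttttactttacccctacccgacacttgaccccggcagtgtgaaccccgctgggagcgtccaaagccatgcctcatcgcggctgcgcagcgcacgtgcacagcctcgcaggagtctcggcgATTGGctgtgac
PSMA4, chr15:78540155-78540404, plus strand: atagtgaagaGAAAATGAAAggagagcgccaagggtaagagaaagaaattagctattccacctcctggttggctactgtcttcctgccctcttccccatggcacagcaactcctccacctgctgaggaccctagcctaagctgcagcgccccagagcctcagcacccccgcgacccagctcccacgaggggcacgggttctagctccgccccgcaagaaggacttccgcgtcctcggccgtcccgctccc
PSMB10, chr16:67936851-67937100, minus strand: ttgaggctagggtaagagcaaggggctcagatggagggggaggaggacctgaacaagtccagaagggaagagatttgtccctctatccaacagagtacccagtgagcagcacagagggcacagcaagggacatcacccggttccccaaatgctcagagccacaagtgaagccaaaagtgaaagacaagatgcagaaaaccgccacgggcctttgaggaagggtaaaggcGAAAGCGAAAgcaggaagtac
PSMB9, chr6:32853942-32854191, plus strand: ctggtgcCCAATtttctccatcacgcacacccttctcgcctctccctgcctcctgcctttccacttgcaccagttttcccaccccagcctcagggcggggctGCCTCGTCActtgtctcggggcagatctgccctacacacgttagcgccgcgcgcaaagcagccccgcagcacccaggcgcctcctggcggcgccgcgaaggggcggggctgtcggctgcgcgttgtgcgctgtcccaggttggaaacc
PSMB8, chr6:32844680-32844929, minus strand: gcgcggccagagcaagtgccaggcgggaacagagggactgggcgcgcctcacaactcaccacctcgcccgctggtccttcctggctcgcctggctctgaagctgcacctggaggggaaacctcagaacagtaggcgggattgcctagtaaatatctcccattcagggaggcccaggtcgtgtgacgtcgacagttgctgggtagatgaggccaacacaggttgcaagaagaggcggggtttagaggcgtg

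The motifs, searched on both strands, were the core of the antioxidant response element (TGACNNNGC, to which NFE2L1 and NFE2L2 are known to bind), the CCAAT box, the interferon gamma activated site (TTCNNNGAA) and the interferon-stimulated response element (a pair of GAAA with NN between them). In the promoters printed here, PSME3 holds an interferon gamma activated site 230 bases and a reversed CCAAT box 12 bases before the start. PSMA4 and PSMB10 hold an interferon-stimulated response element, 240 and 21 bases before it. PSMB9 holds a CCAAT box 243 bases and a reversed antioxidant core 148 bases before it, and PSMB8 holds none of the 4. Of the 44 members with a promoter in the RefSeq table, 11 hold the antioxidant core (25%, against 11.03% of all 27305 promoters) and 20 the CCAAT box (45.5% against 33.0%). The interferon-stimulated response element is in 5 (11.4% against 3.07%), PSMA4, PSMB4, PSMB10, PSME2 and PSMG4, and the interferon gamma activated site is in 5 (11.4% against 6.78%). A match is a description of letters and not a measured site of binding.

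The RNA signal of nearly all members fell over the 72 h. With an adjusted p under 0.05, 44 of 49 members had a falling slope and 0 a rising one in limma, and none rose at an unadjusted p under 0.05 either. Among all 16693 genes tested, 32.7% fell and 21.3% rose. The 5 members that did not pass were PSMB8, PSMB9, PSMB11, PSMD10 and PSME1. The median difference between the late arrays (60, 66 and 72 h) and the early ones (3, 4 and 6 h) was -0.58 on the log2 scale over the members, or 1.49-fold lower, against -0.11 over all genes. The differences ranged from -1.63 for PSME3 to 0.23 for PSMB9, and 21.8% of all genes fell by more than the median member. In 45 of the 49 members (91.8%) each late array lay below each early array, which was so for 38.7% of all genes. The exceptions were PSMB8, PSMB9, PSMB11 and PSMD10.

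**Figure D1:**
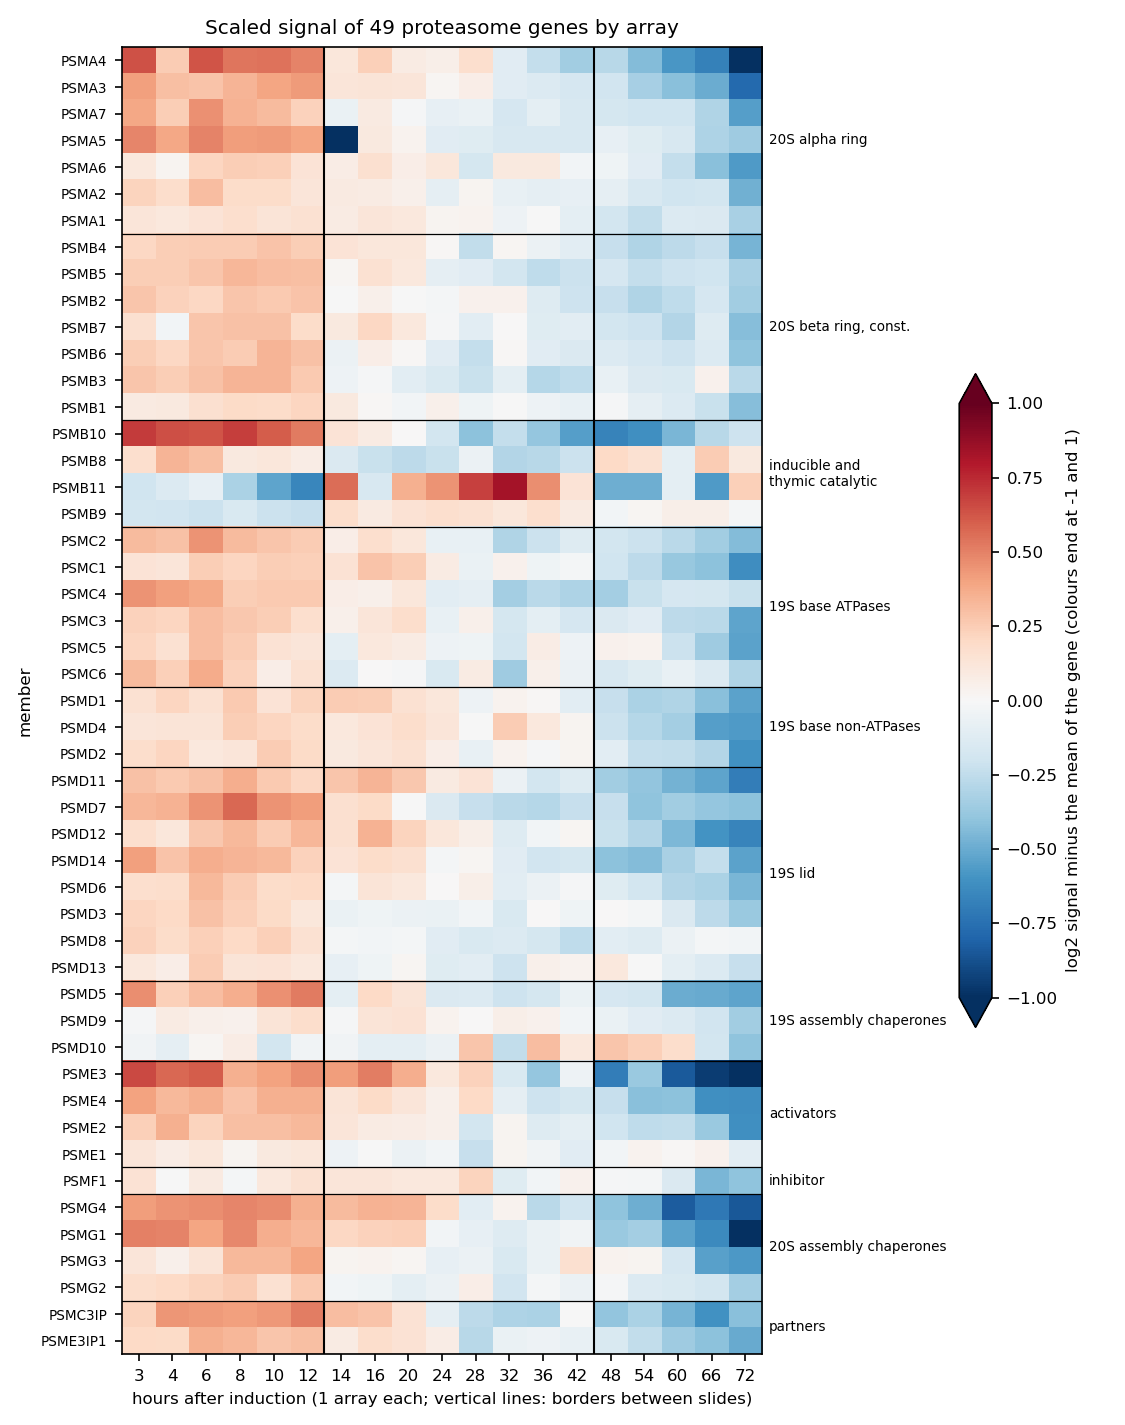
Log2 signal of the 49 tested members minus the mean of the gene over its 19 arrays, 1 row per gene within its role and 1 column per array in hours after induction, with black vertical lines at the borders between slides. Almost all rows turn from red (above the mean of the gene) to blue (below it), and PSMB8, PSMB9, PSMB11 and PSMD10 do not follow, while PSMA5 at 14 h is a single dark cell.

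The share of falling genes differed with brightness, which is given beside the fall. The members are bright, with the middle range of their mean signals from 6351 to 30526, and 60.8% of the 2014 genes in that range fell, as did 25 of the 25 members in it. Above that range 47.2% of 581 genes and 12 of 12 members fell, and below it 28.1% of 14098 genes and 7 of 12 members. The median late minus early difference in the middle range was -0.40 over all its genes and -0.70 over its members. Above that range these medians were -0.16 and -0.54, and below it -0.05 and -0.42. In each range the median of all genes fell by less than that of the members, and the part of brightness in the result was not tested.

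The direction of the group was the same under each scaling, but its size was not, and single slopes that had not passed turned in sign (PSMB9 and PSMD10 to negative with the array median and with spike-in RNA, PSMB8 and PSME1 to positive with normexp), as did those of PSMD8 (to 0.011) and PSMD13 (to 0.022), which had passed, with normexp. Scaled by the array median, 45 members fell (46.1% of all genes did) with a median difference of -0.92, where the median of all genes was -0.45. Scaled by spike-in RNA, 45 fell (44.5% of all genes) with a median of -1.16, against -0.70 over all genes. With normexp and quantile normalization 32 fell (26.2% of all genes) with a median of -0.31, against -0.04.

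The course was flat up to 12 h and then declined. Relative to 3 to 6 h, the median member stood at 0.00 on the log2 scale at 8 to 12 h, with 24 of 49 members lower. In the windows 14 to 20, 24 to 28, 32 to 42, 48 to 54 and 60 to 72 h it stood at -0.16, -0.27, -0.33, -0.40 and -0.58. The median over all genes was 0.00 at 8 to 12 h and then stayed between -0.12 and -0.09 from 14 to 54 h. The number of members above their own mean was 45 on the 3 h array and 46 on the 12 h array, and then 32, 22, 9 and 2 on the arrays of 14, 24, 42 and 72 h. The share of all genes above their own mean was 57.9% on the 3 h array, 40.3% on that of 14 h, 47.7% after 48 h and 44.0% after 72 h. A cubic course in hours changed in 47 of 49 members, against 79.5% of all genes, with PSMB11 and PSME1 as the exceptions.

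**Figure D2:**
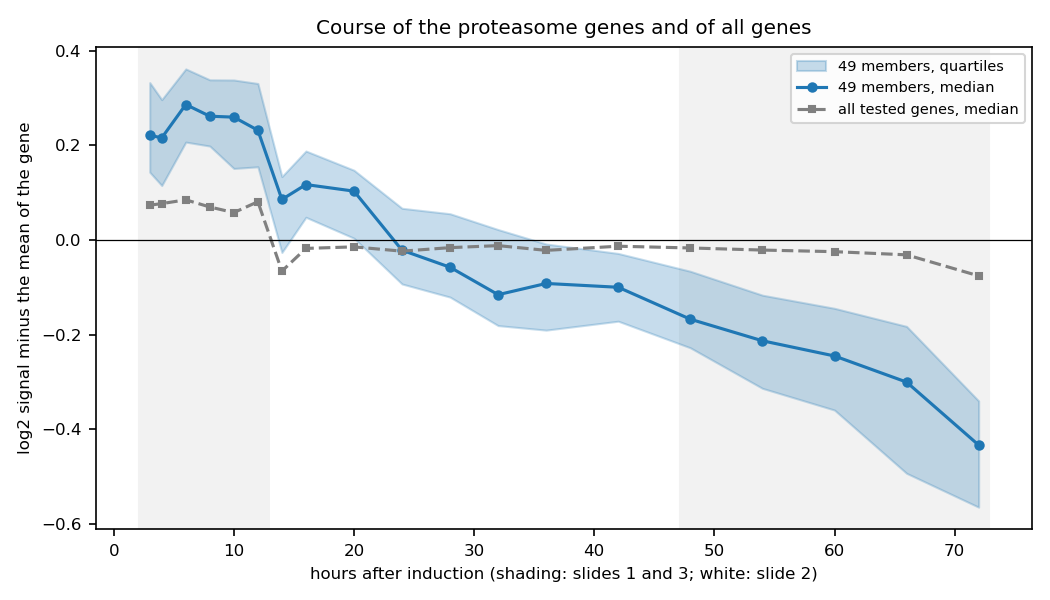
Median (line) and quartiles (band) of the log2 signal of the 49 members minus the mean of each gene, and the median of all 16693 tested genes (dashed), against hours after induction, with slides 1 and 3 shaded. The members stay near 0.22 to 0.29 up to 12 h, step down with all genes between 12 and 14 h, and decline to -0.43 at 72 h while the median of all genes stays near 0.

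Part of the fall lies at the border between the slides. From 10 and 12 h to 14 and 16 h the median member stepped by -0.15 and 43 of 49 members went down, and the median of all genes stepped by -0.15 as well, with 69.7% of genes down. At the border from the second to the third slide (36 and 42 h to 48 and 54 h) the median member stepped by -0.10 and the median of all genes by -0.01. With the slide as a block, 16 members kept a falling slope (5.33% of all genes fell) and 0 rose (4.22% of all genes did; also 0 at an unadjusted p under 0.05). They are PSMA2, PSMA3, PSMA4, PSMB5, PSMC1, PSMC2, PSMC3, PSMD1, PSMD7, PSMD11, PSMD12, PSME2, PSME3, PSME4, PSMG1 and PSMG4. The fitted slope was still below 0 in 47 of 49 members with the block, against 51.4% of all genes, and the cubic course changed in 27 (36.0% of all genes).

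Within the slides, slopes were below 0 in 22 of 49 members from 3 to 12 h, in 43 from 14 to 42 h and in 44 from 48 to 72 h. The shares over all genes were 49.2%, 48.5% and 53.3%. The median slope of the members was 0.030, -0.079 and -0.134 log2 units per 10 h in the 3 slides. Within slide 2 PSMB10, PSMD11 and PSMG4 passed the test (2.89% of all genes fell there), and within slides 1 (3.28% fell) and 3 (1.06% fell) no member did in limma, where 2 and 18 fell and 1 and 1 rose at an unadjusted p under 0.05.

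**Figure D3:**
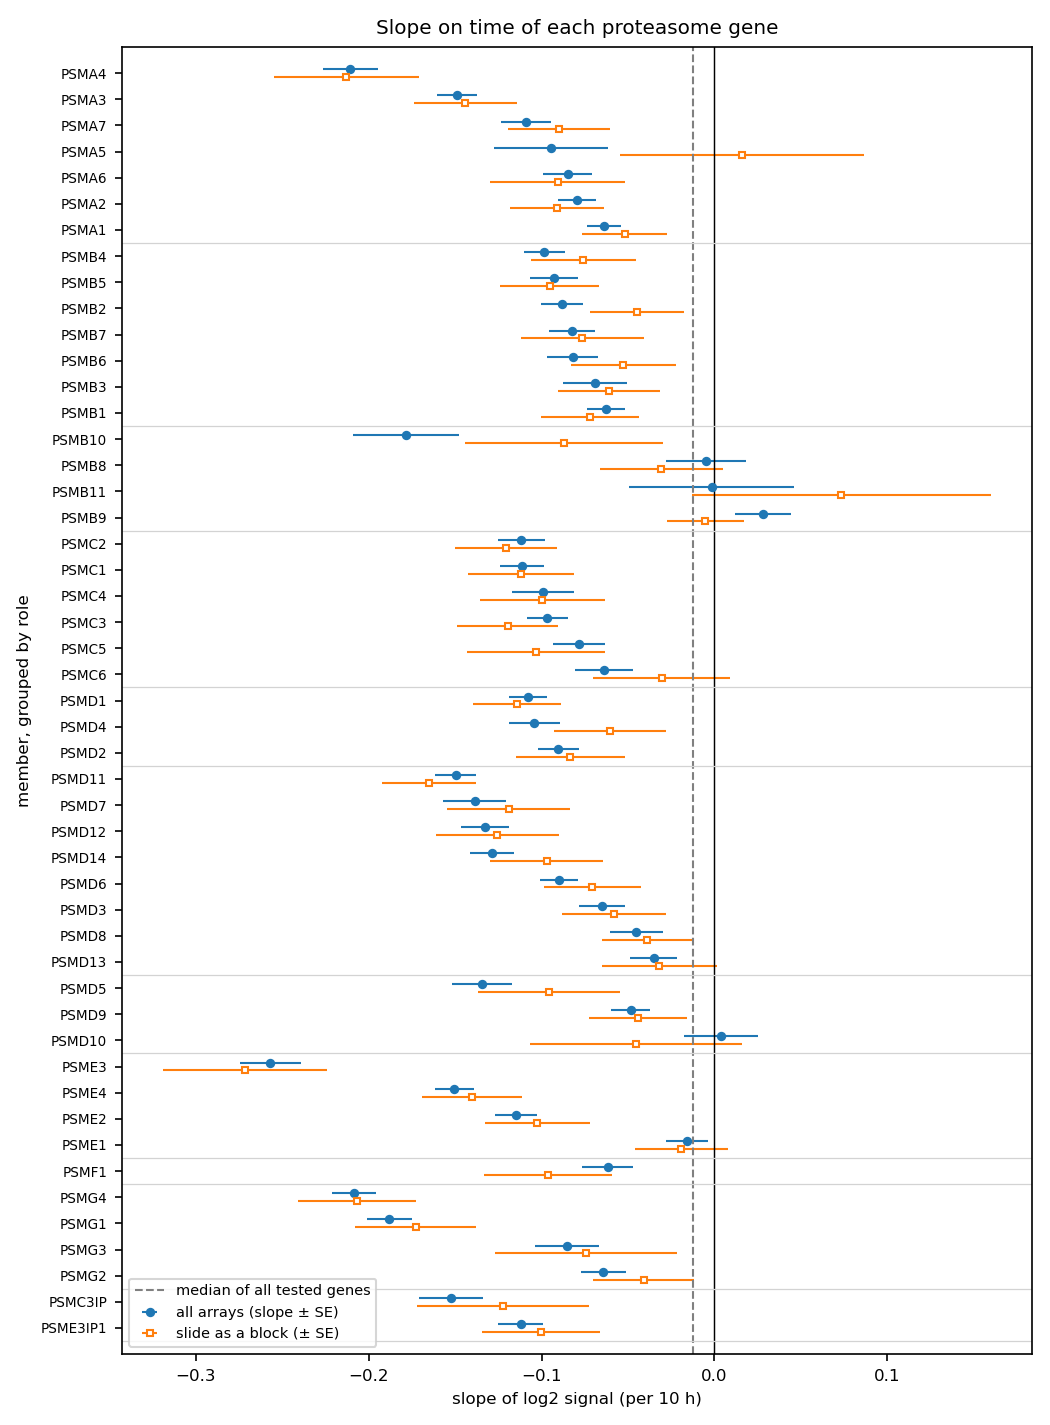
Slope of log2 signal per 10 h of each tested member, grouped by role, over all arrays (filled circles) and with the slide as a block (open squares), with standard errors, a line at 0 and a dashed line at the median of all genes. All points but PSMB9 and PSMD10 (all arrays) and PSMA5 and PSMB11 (block) lie left of 0, with PSME3 farthest to the left.

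The genes of the alpha ring fell together, with all 7 that were tested past the threshold. Their median late minus early difference was -0.71, from -1.28 for PSMA4 to -0.32 for PSMA1. With the slide as a block 3 of the 7 kept their calls, PSMA2, PSMA3 and PSMA4. With normexp and quantile normalization PSMA1, PSMA2, PSMA5 and PSMA6 lost theirs (adjusted p = 0.28, 0.077, 0.27 and 0.088). PSMA4 (chromosome 15, 78540405 to 78552417, GRCh38.p14) had signals of 25270, 19372 and 25177 on the early arrays (3, 4 and 6 h), 12799 at 42 h, and 10857, 10187 and 7711 on the late ones (60, 66 and 72 h). The late arrays were the 3 lowest and the 4 h array stood below its neighbours. Its signal was 2.44-fold lower late than early, with a slope of -0.211 ± 0.016 (SE) per 10 h (adjusted p = 7.0e-09), and -0.213 with the slide as a block (adjusted p = 0.0069). PSMA3 followed with a difference of -0.90 (slope -0.149, adjusted p = 1.0e-08). PSMA5 had the largest scatter of the ring, because its signal was 14421 at 14 h between 37942 at 12 h and 30843 at 16 h. Its slope of -0.095 (adjusted p = 0.022) became -0.116 without that array (adjusted p = 1.7e-05), and 0.016 under the slide block (adjusted p = 0.92). The 14 h array also had the most flagged spots (814) and the lowest share of probes above background (49.5%). The part of this in the value of PSMA5 at 14 h was not tested.

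The genes of the constitutive beta ring moved within a narrow range, with all 7 falling by 0.38 (PSMB1) to 0.55 (PSMB4) and a median difference of -0.49. The catalytic PSMB5, which cuts after hydrophobic residues, ranged from 33273 at 72 h over a median of 39096 to 52415 at 8 h, and was 1.42-fold lower late than early (slope -0.093 ± 0.014, adjusted p = 2.2e-05). PSMB6, the caspase-like subunit, ranged from 47107 at 72 h over 59829 to 78949 at 10 h and was 1.41-fold lower (slope -0.082 ± 0.014, adjusted p = 1.1e-04). PSMB7, the trypsin-like subunit, ranged from 30125 at 72 h over 40276 to 49563 at 10 h and was 1.34-fold lower (slope -0.082 ± 0.013, adjusted p = 3.7e-05). For all 3, each late array lay below each early one, and 72 h was the lowest of the 19 arrays. With the slide as a block PSMB5 alone of the 7 kept its call (slope -0.095, adjusted p = 0.047). PSMB6 and PSMB7 had adjusted p of 0.29 and 0.19 in that fit. Within slide 1 none of the 7 slopes was below 0, and none passed. With normexp and quantile normalization PSMB3 lost its call (slope -0.0007, adjusted p = 0.98).

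Over all arrays the inducible catalytic subunits went separate ways, although PSMB8 and PSMB9 lie 9512 bases apart in the MHC region of chromosome 6, with TAP1 between them. With the slide as a block no inducible subunit passed, and each fitted slope was below 0. PSMB8 had signals of 1156, 1304 and 1265 on the early arrays, was lowest after 32 h with 842, and had 960, 1228 and 1100 on the late ones. The 8 arrays from 14 to 42 h lay between 842 and 987, and 4 of the 5 arrays of slide 3 lay above that range, and its slope was -0.0048 per 10 h (SE 0.023, adjusted p = 0.88). PSMB8 stepped by -0.27 at the first slide border and by 0.42 at the second, and its slope was -0.031 with the block (adjusted p = 0.64). PSMB9 lay between 1493 and 1575 on the 6 arrays up to 12 h and between 1712 and 1975 on the 13 from 14 h, so the arrays of the first slide did not overlap with the others. Its step at that slide border was 0.35 where the median of all genes was -0.15, its late minus early difference was 0.23, and its slope was 0.028 ± 0.016 (adjusted p = 0.16), or -0.0052 with the block (adjusted p = 0.91). With normexp and quantile normalization PSMB9 passed as rising (slope 0.044, adjusted p = 0.045), as it did with log2 hours in place of hours (adjusted p = 0.022). TAP1, the peptide transporter that starts 487 bases away on the other side of the PSMB9 promoter, had a slope of 0.022 (adjusted p = 0.58).

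PSMB10 (chromosome 16, 67934506 to 67936850) fell, unlike its partners. Its signals were 19067, 18424 and 18170 on the early arrays, 16845, 12918, 10370 and 7402 on the arrays of 12, 14, 24 and 48 h, and then 8557, 9722 and 10220 on the late ones. The arrays up to 12 h were the highest, the minimum was at 48 h, and the 4 arrays after it climbed again without reaching the level of 12 h. The late signal was 1.96-fold lower than the early one (slope -0.178 ± 0.031, adjusted p = 8.7e-05). The slope was -0.241 within slide 2 (adjusted p = 0.024), 0.212 within slide 3 (not past the threshold) and -0.087 with the slide as a block (adjusted p = 0.36). At the first slide border PSMB10 stepped by -0.45, where the median of all genes stepped by -0.15.

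Each inducible subunit was set against the constitutive subunit of the same site within each array, where a single scaling factor per array cancels. The PSMB8 minus PSMB5 difference rose by 0.088 log2 units per 10 h (two-sided permutation test over 19 arrays, adjusted over 3 pairs, p = 5.7e-04), and by 0.32 from early to late. The PSMB9 minus PSMB6 difference rose by 0.110 per 10 h (permutation, adjusted p = 0.0011), and by 0.72 from early to late. The PSMB10 minus PSMB7 difference fell by 0.096 per 10 h (permutation, adjusted p = 0.0068), and by 0.55 from early to late. With the slide as a block no pair passed (0.065, 0.047 and -0.011 per 10 h, with permutation adjusted p of 0.25, 0.25 and 0.87). With normexp and quantile normalization the PSMB8 minus PSMB5 slope was 0.040 and did not pass (permutation, adjusted p = 0.071). Within the slides, the PSMB10 minus PSMB7 slope was -0.315 in slide 1, -0.138 in slide 2 (exact permutation p = 0.0012) and 0.281 in slide 3 (exact permutation p = 0.017, neither adjusted), so it turned in sign. The other pairs also changed sign between slides, with -0.303, 0.117 and 0.028 for PSMB8 minus PSMB5 and -0.126, 0.038 and 0.094 for PSMB9 minus PSMB6.

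**Figure D4:**
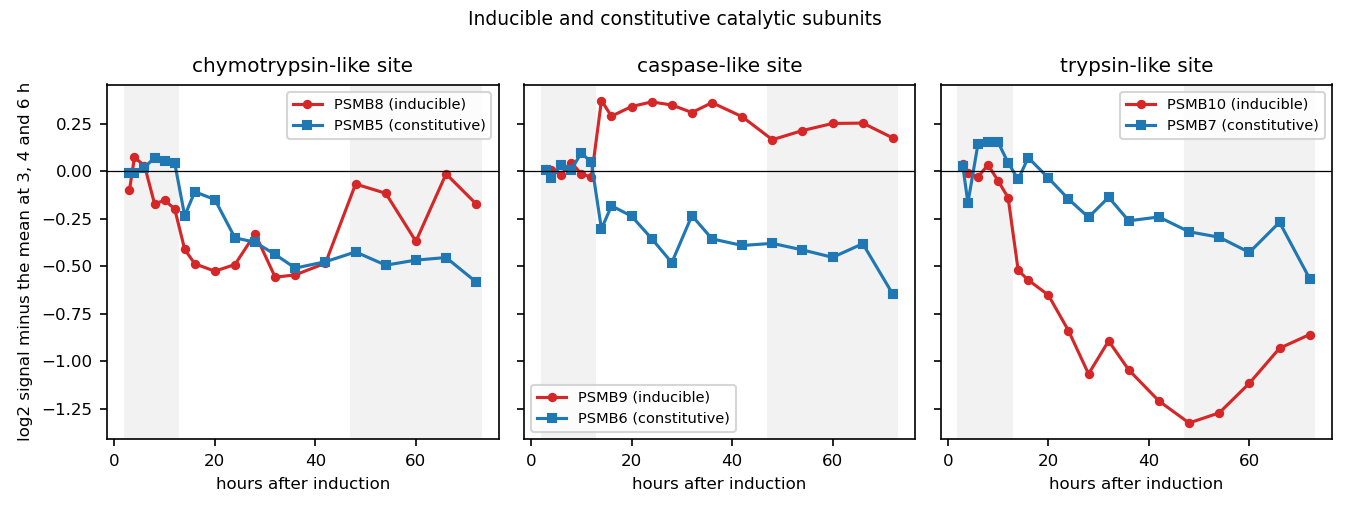
Log2 signal of the 3 inducible (red circles) and constitutive (blue squares) catalytic subunits minus their own mean at 3, 4 and 6 h, by site, against hours after induction, 1 array per point, with slides 1 and 3 shaded. PSMB9 lies above 0 on all arrays from 14 h where PSMB6 lies below it, PSMB8 returns toward 0 on slide 3, and PSMB10 drops below PSMB7 to a minimum at 48 h.

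All 17 subunits of the 19S cap with a PSM symbol fell. With the slide as a block PSMC1, PSMC2, PSMC3, PSMD1, PSMD7, PSMD11 and PSMD12 kept their calls and the others did not. With normexp and quantile normalization PSMC5, PSMC6, PSMD3, PSMD8 and PSMD13 lost theirs (adjusted p = 0.24, 0.30, 0.24, 0.44 and 0.17). The 6 ATPases, which unfold the substrate, had a median difference of -0.60, from -0.70 for PSMC2 to -0.48 for PSMC6. The scaffold subunits PSMD1 and PSMD2 differed by -0.60 and -0.55 and the ubiquitin receptor PSMD4 by -0.61. The lid spread more widely, with a median of -0.65 over its 8 subunits. PSMD11, a lid subunit that stabilises the assembled particle, differed most with -0.85 (slope -0.150, adjusted p = 9.2e-09, and -0.165 with the block, adjusted p = 0.0026). PSMD14, the deubiquitinase of the lid, differed by -0.72, and PSMD8 differed least with -0.25. PSMD13, the least falling member that passed, ranged from 6621 at 72 h over 7881 to 9285 at 6 h with a slope of -0.035 ± 0.014 (adjusted p = 0.037). It lost its call when any of 8 single arrays was left out (at 3, 6, 8, 10, 12, 60, 66 or 72 h, highest adjusted p = 0.12), and it was the only member whose call changed in that way.

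Of the chaperones that assemble the 19S base, PSMD5 fell by 0.85 and PSMD9 by 0.26, while PSMD10 (gankyrin) did not pass the test. PSMD10 ranged from 1347 at 72 h over 1731 to 2201 at 36 h, its early arrays (1669 to 1804) lay within the range of the late ones (1347 to 2007), and its slope was 0.0037 (SE 0.022, adjusted p = 0.90). On the arrays from 3 to 54 h alone PSMD10 passed as rising (slope 0.063, adjusted p = 0.042). The second probe of PSMD10 gave 0.0047 (adjusted p = 0.92). All 4 chaperones of the 20S core fell. PSMG1 and PSMG4, which belong to different chaperone pairs, differed by -1.19 and -1.24, and their partners PSMG2 and PSMG3 by -0.43 and -0.53. PSMG4 held 9677 to 10631 on the 6 arrays up to 12 h and had 4250, 4621 and 4205 on the late ones, a 2.36-fold lower signal (slope -0.209 ± 0.013, adjusted p = 5.6e-10). Its second probe, above background on 7 arrays, differed by -0.47 and did not pass (adjusted p = 0.49), and the mean of both probes had a slope of -0.130 (adjusted p = 9.3e-04). PSMG1 went from 28567, 28425 and 26494 on the early arrays to 13897, 12951 and 10018 on the late ones, 2.29-fold lower (slope -0.188 ± 0.013, adjusted p = 1.8e-09). In both, the late arrays lay below all arrays up to 54 h, and both kept their calls with the block (adjusted p = 0.0076 for PSMG1 and 0.0026 for PSMG4).

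The activators held both the steepest member and 1 of the flattest. PSME3, the nuclear activator PA28 gamma (chromosome 17, 42833397 to 42843760), had signals of 10018, 9439 and 9675 on the early arrays, 6839 after 24 h, 3931 after 48 h, and 3553, 3288 and 2666 on the late ones. The late arrays were the lowest of the course and 3.09-fold below the early ones. Its slope was -0.257 ± 0.018 (adjusted p = 1.8e-09), -0.272 with the block (adjusted p = 0.0035), and -0.259, -0.266 and -0.283 within the 3 slides, none of which passed alone. PSME4, the nuclear activator PA200, went from 3823 to 4034 early to 1982 to 2292 late, 1.88-fold lower (slope -0.151 ± 0.011, adjusted p = 5.2e-09). PSME1 and PSME2 encode the subunits of the cytoplasmic, interferon-inducible PA28 ring and lie 4402 bases apart on chromosome 14. PSME2 went from 58761 to 64362 early to 32907 to 42478 late, 1.61-fold lower (slope -0.115 ± 0.012, adjusted p = 2.9e-07). PSME1 ranged only from 1066 at 28 h over 1264 to 1358 at 3 h, with a slope of -0.016 ± 0.012 (adjusted p = 0.28), and passed as falling with the array median (adjusted p = 0.0095) and with spike-in RNA (adjusted p = 0.029).

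**Figure D5:**
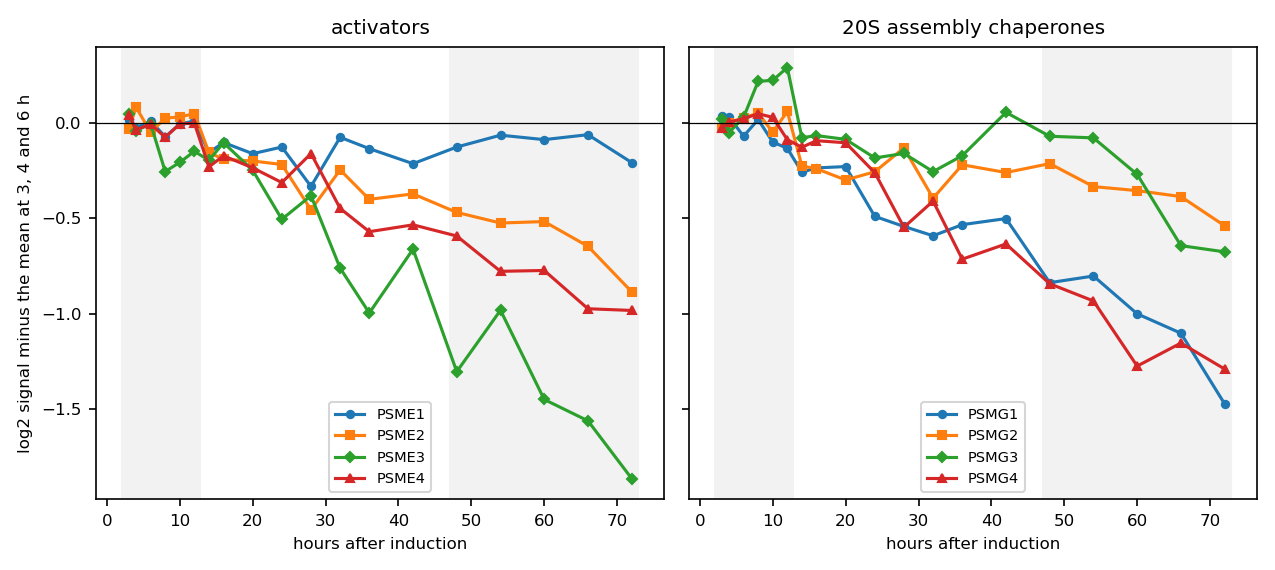
Log2 signal of the activators PSME1 to PSME4 (left) and of the 20S chaperones PSMG1 to PSMG4 (right) minus their own mean at 3, 4 and 6 h, against hours after induction, 1 array per point, with slides 1 and 3 shaded. PSME3 reaches the lowest values of all 8 genes, PSME1 stays near 0, and PSMG1 and PSMG4 run below PSMG2 and PSMG3 from 28 h on.

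The inhibitor PSMF1 fell by 0.41 (adjusted p = 0.0016). The non-subunits PSMC3IP and PSME3IP1 fell as well, by 0.86 and 0.67. Without them, 42 of 47 tested members fell with a median difference of -0.55.

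Further probes exist for 16 of the members. Of the 17 that were tested with limma, 10 fell, 0 rose (0 at an unadjusted p under 0.05) and 7 did not pass, and the slope of each had the sign of the probe used. The largest gap was in PSMF1, whose 4 probes gave differences of -1.34, -0.41, -0.42 and -0.03. PSMD1 gave -1.01 with its dimmer probe, PSMD5 -0.23, and PSME3IP1 -0.10 (adjusted p = 0.15). The probes of PSMD6, PSMD7 and PSME3IP1 are printed in 10 copies per array, and the SD of log2 signal between copies had a median of 0.03, 0.04 and 0.04 over the arrays, where the SD of the arrays around the fitted line was 0.07, 0.16 and 0.10.

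Among subunits and partners without a PSM symbol, 6 of 11 tested genes fell and 2 rose, where 32.7% of all genes fell and 21.3% rose, and the median difference was -0.34. With the slide as a block 2 fell, ADRM1 and SEM1, and 1 rose, PAAF1. ADRM1, a ubiquitin receptor of the 19S base, went from 6189 to 3681 (slope -0.120, adjusted p = 3.5e-05), and SEM1, a lid subunit, from 56730 to 39660 (slope -0.097, adjusted p = 3.0e-07). The genes that rose were the chaperone PAAF1 (from 4386 to 5743, slope 0.066, adjusted p = 0.0022) and the deubiquitinase UCHL5 (from 1569 to 1830, slope 0.056, adjusted p = 0.0096). POMP, which matures the assembling core, had a dim probe (275 early and 286 late, slope 0.039, adjusted p = 0.32).

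Genes that control proteasome transcription did not share 1 direction, with 5 of 12 falling and 3 rising and a median difference of -0.21, close to the shares over all genes. With the slide as a block HCFC1 fell (adjusted p = 0.029) and no other call was kept. NFE2L1, the factor that raises proteasome genes when the proteasome is inhibited, fell from 19888 to 12465 (slope -0.106 ± 0.018, adjusted p = 8.8e-05, and 0.24 with the block). HCFC1, a transcriptional cofactor, fell from 274 to 103 (slope -0.263, adjusted p = 1.5e-08), NGLY1, which removes sugars from NFE2L1, rose from 14201 to 21964 (slope 0.126, adjusted p = 0.046), and SEL1L, an adaptor that retrieves proteins from the endoplasmic reticulum, rose from 603 to 855 (slope 0.081, adjusted p = 0.047). DDI2, the protease that cleaves NFE2L1, had 122 early and 131 late (adjusted p = 0.38). The probe of NFE2L2 was above background on 3 arrays and was not tested.

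Most ubiquitin genes did not pass the test, and the median difference of their list was -0.13. Of 7 ubiquitin and activation genes 1 fell, the conjugating enzyme UBE2K (slope -0.094, adjusted p = 1.0e-04), and 0 rose in limma (0 at an unadjusted p under 0.05). RPS27A, a ubiquitin fusion gene, had signals of 185519 early and 189162 late. Of 8 shuttle and delivery factors (median difference -0.27) 3 fell, among them RAD23B (slope -0.118, adjusted p = 0.025) and UBQLN1 (slope -0.106, adjusted p = 1.5e-04), and NUB1 rose (slope 0.048, adjusted p = 0.024), again close to the shares over all genes. Neither these calls nor that of UBE2K passed with the slide as a block.

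In the list of interferon and class I antigen genes, which act around the immunoproteasome, 5 of 15 rose and 2 fell, with a median difference of 0.12. Among all genes tested, 21.3% rose and 32.7% fell. With the slide as a block 2 genes of the list rose and 1 fell, B2M among the former and TAP2 as the latter. B2M, the light chain of class I molecules, rose from 5716 to 9617 (slope 0.135, adjusted p = 9.8e-06, and 0.032 with the block), and NLRC5, the activator of class I genes, from 118 to 226 (slope 0.127, adjusted p = 0.014). TAP2 fell from 1078 to 501 (slope -0.174, adjusted p = 9.1e-08) and the peptide trimming enzyme ERAP1 from 923 to 650 (slope -0.073, adjusted p = 0.0020).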

How the data were processed

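One-colour Agilent arrays of 19 samples were analysed. The authors deposited the scanner output, in which the processed signal of a spot is an intensity with background subtracted (Agilent Feature Extraction 10.10.1.1, per the submitters' processing notes), with flags of 0 or 1. They also deposited a value table, equal to that intensity times 1 factor per array (0.905 to 1.38, largest deviation 0.023%) and blank where a spot is not well above background. The rule for the factors is not given in the sources used here.

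Flagged spots (0.63%) were left out and none was saturated. Spots of a probe were averaged, log2 taken and the 75th percentile of the array (526 to 800) subtracted. Probes were named through RefSeq (28174 of 50683 probes, 20503 genes), and a gene was read by its brightest probe. Between 49.5% and 64.7% of probes were well above background. The number of arrays limits the precision.

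Slopes on hours and a cubic polynomial in hours were fitted with limma 3.58.1 (R 4.3.3; lmFit, eBayes, Benjamini-Hochberg over all 32111 probes above background on at least 5 arrays, adjusted p under 0.05). On simulated data with 200 changed probes the slope test recovered 73 with 1 false call. Of these 73, 17 had the smaller simulated size and 56 the larger. The cubic course recovered 140 with 10 false calls. These counts describe the simulated data and give no rate of false calls for the real arrays, where slide and time overlap. Pairs were tested with 100000 permutations over the arrays, and by exact permutation within slides. Differences set the mean of the 60, 66 and 72 h arrays against that of the 3, 4 and 6 h arrays and are descriptions, not tests.

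Named in full are PSMB5 to PSMB10, PSME1 to PSME4, and the 5 members with the highest and the 5 with the lowest slopes. Those 5 each way were taken among members well above background on all arrays, which leaves out PSMB11. Of the lists, up to 2 genes past the test each way are named, plus NFE2L1, NFE2L2, DDI2 and POMP, and other genes named were chosen after their values were seen. No probe was matched to ECPAS, BAG6, TDGF1 or CGB5. The members and lists were chosen with earlier results of these data known. Alternatives were array median and spike-in RNA scaling (7 of 10 levels), normexp (offset 50, on median pixel intensity) plus quantile normalization, the authors' deposited table, no filter on dim probes, all 19 arrays above background, log2 hours, a slide block, the time points up to 54 h, averaged probes, and each array left out.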

Additional observations from a re-analysis of the deposited data

How the results depend on the processing

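The fall of the members was counted under 10 other settings and with each array left out. The count of 44 falling members became 16 with the slide as a block and the count of 47 changing courses became 27. These counts were 38 and 41 with the arrays from 3 to 54 h, and 32 and 41 with normexp and quantile normalization. Over all genes 32.7% fell and 79.5% changed course, and with the block 5.33% and 36%, while 26.2% fell with normexp. No share over all genes was counted for log2 hours, the arrays from 3 to 54 h, each array left out, or courses with normexp. Those counts are thus not read as particular to the members. The 0 rising members became 1 with normexp and quantile normalization, and with log2 hours (PSMB9 in both) and with the arrays from 3 to 54 h (PSMD10, slope 0.063, adjusted p = 0.042). The median difference of -0.58 became -0.92 with the array median, -1.16 with spike-in RNA and -0.31 with normexp and quantile normalization. Leaving out 1 array gave 43 to 44 falling members, 0 rising, 47 to 48 changing courses and a median of -0.61 to -0.51. Leaving out 1 array left the pair slopes at 0.08 to 0.10 (PSMB8 minus PSMB5), 0.10 to 0.12 (PSMB9 minus PSMB6) and -0.14 to -0.08 (PSMB10 minus PSMB7). With the block the pair slopes were 0.065, 0.047 and -0.011 and none passed, and PSMB8 minus PSMB5 was 0.040 with normexp (permutation, adjusted p = 0.071).

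Under the block and the scalings, 3 slopes that had passed changed sign, PSMA5 (0.016 with the block), PSMD8 (0.011 with normexp) and PSMD13 (0.022 with normexp), and none passed in the new direction. Of those that had not passed, PSMB9 was -0.019 with the array median, -0.046 with spike-in RNA and -0.0052 with the block, and PSMD10 -0.044, -0.071 and -0.045. PSMB11 was 0.073 with the block, and with normexp PSMB8 and PSME1 were 0.0019 and 0.0016. The slope of PSMG4 was -0.130 with averaged probes. Leaving out 1 array gave -0.019 to 0.0059 for PSMB8 and -0.0036 to 0.031 for PSMD10. The causes were not tested. No paired analysis was possible because no time point holds a second array. Spread between cultures is unknown, and signals near background are less certain.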
